A study of Mus musculus with 2 samples.

Results

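The genes described here are 10 that build the contacts between lung barrier cells: the claudins Cldn3, Cldn5, Cldn7 and Cldn18, occludin (Ocln), the scaffold Tjp1, the immunoglobulin-type adhesion protein F11r, the cadherins Cdh1 and Cdh5, and Epcam. They were taken by symbol, and all 10 were found among the 27998 genes of the files. Their transcripts were counted in single cells of whole mouse lung from 2 libraries, 1 labelled control and 1 labelled fibrosis, each from 1 male C57Bl/6J mouse aged 3 months. Both mice received 100 µg of particles into the trachea and were killed on day 14. The labels name titanium dioxide and crocidolite asbestos for both samples without saying which mouse received which, so the groups are called by their labels only. Each group was 1 mouse, so the spread between mice is unknown, no test between the groups was possible, and all intervals are exact 95% intervals that cover counting error only.

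Tight junctions seal the space between neighbouring cells: claudins form the strands that set which ions pass, occludin lies in the same strands, Tjp1 ties them to the actin cytoskeleton, and F11r helps place them. Below them, adherens junctions hold cells together through cadherins, Cdh1 (E-cadherin) in epithelium and Cdh5 (VE-cadherin) in endothelium. In the alveolus, thin type 1 (AT1) cells and surfactant-making type 2 (AT2) cells form the air-side barrier, ciliated and club cells line the airways, Cldn5 is the main claudin of blood vessels, and the mesothelium covers the lung surface. Epcam is a homophilic adhesion protein of epithelial cells that binds and stabilises Cldn7.

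The start regions of 4 genes with unlike cell type patterns are shown before their values: Epcam and Cldn7 for epithelium at large, Cldn18 for alveolar epithelium and Cldn5 for endothelium. Each is the 250 bases upstream of an annotated start, from RefSeq on GRCm38.p6, read 5′ to 3′ along the gene. Capitals mark CACCTG or its reverse complement CAGGTG, the E-box letters that repressors such as Zeb1 and Snai1 bind.
Epcam, chr17:87635729-87635978, plus strand: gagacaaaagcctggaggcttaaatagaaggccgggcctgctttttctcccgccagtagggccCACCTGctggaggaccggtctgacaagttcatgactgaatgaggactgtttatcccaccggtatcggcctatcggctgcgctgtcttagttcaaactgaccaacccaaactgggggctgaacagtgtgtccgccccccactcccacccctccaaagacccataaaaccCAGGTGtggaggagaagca
Cldn7, start nearer the 3′ end, chr11:69965171-69965420, plus strand: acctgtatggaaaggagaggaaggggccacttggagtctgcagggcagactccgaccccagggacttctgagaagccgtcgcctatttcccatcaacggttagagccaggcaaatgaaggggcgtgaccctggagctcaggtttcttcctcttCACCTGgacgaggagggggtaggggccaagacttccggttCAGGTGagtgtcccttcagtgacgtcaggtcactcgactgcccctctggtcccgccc
Cldn18, start farther from the 3′ end, chr9:99717268-99717517, minus strand: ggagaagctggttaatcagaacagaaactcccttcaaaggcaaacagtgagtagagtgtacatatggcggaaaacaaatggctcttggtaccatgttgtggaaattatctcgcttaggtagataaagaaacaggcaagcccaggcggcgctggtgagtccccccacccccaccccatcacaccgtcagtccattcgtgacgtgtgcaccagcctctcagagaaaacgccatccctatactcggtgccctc
Cldn5, chr16:18776597-18776846, plus strand: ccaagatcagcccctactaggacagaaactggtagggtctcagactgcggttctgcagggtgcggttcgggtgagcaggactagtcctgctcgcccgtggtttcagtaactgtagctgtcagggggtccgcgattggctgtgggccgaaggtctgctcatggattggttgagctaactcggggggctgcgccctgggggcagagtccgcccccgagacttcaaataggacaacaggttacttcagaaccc
The table held 11 windows for 8 of the 10 genes, with no entry used for Cdh1 and Cdh5. CACCTG occurred on either strand in 4 of the 11 windows, 2 times each in the Epcam, Cldn7 and second Ocln windows and 1 time in the F11r window, against 17.2% of all 32851 promoters of that length. The Cldn5 window held AACCNGTT 1 time, against 1.79% of all promoters, and GGGCGG was in 8 of the 11 windows, against 32.7%. CTCAAG occurred in the F11r and first Ocln windows against 13.3% of promoters, and AGGAAG in both Cldn7 windows against 29.5%. AACAAT and TATAAA, in 9.42% and 12.4% of all promoters, were in none of the 11 windows, and the Cldn18 windows held none of these letters. Both strands were searched and each motif was counted separately. These matches describe letters, no match says nothing of a factor, and 3′ counts cannot tell apart transcripts from the separate starts of Cldn7, Cldn18 or Ocln.

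Cells were assigned to classes by transcripts of marker genes that include none of the 10, and each class is called gated for that reason. A cell needed a UMI, a unique molecular identifier that stands for 1 captured transcript, of at least 3 of a class's 10 markers, and cells with 3 or more markers of another lineage were set aside as a marker conflict. Of 8025 kept control cells and 6945 kept fibrosis cells, 1197 and 1776 were gated to an epithelial, endothelial or mesothelial class, and 744 and 1053 were in conflict. A looser alternative, added after seeing the data and called the relative conflict rule, set a cell aside only where those other markers also numbered more than 50% of the markers of its own class. AT2-gated cells numbered 893 in control and 1477 in fibrosis, AT1-gated 27 and 36, ciliated-gated 87 and 83, club-gated 33 and 57, endothelial-gated 147 and 105, and lymphatic endothelial-gated 6 and 12. AT2-gated cells held a median of 9 of 10 AT2 markers and endothelial-gated cells 7 of 10 in both libraries. The libraries shared 89 barcodes. Free RNA was present: B-gated cells, which should lack these junctions, had the surfactant transcript Sftpc at 1824 and 1658 CPM. CPM is UMIs of the gene per 1000000 UMIs of the class, and 3′ counting makes it independent of transcript length. Ciliated-gated cells had the club cell transcript Scgb1a1 at 228693 and 196873 CPM, so club transcripts were counted in that class. The epithelial classes count as the same lineage, so the conflict rule does not act between them. Secretory transcripts also lower the CPM of the other genes in a class. Scgb1a1 took 555258 and 446730 CPM of club-gated cells, and Sftpc 200410 and 173498 CPM of AT2-gated cells. The class orders below all use the full totals.

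Each gene had its own distribution over the barrier. Among the 5 barrier classes with at least 20 cells in each library (AT2, AT1, ciliated, club and endothelial), Cldn18 stood highest in AT1-gated cells, Cldn3 in ciliated-gated cells, and Cldn5 and Cdh5 in endothelial-gated cells, with levels of Cldn5 and Cdh5 in the 4 epithelial classes far below these. Tjp1 was shared between AT1-gated and endothelial-gated cells, and F11r reached every barrier class and macrophages as well. Of these 5 classes, the leading one was the same in both libraries for each of the 10 genes. Lymphatic endothelial-gated cells, only 6 and 12, lay above it for Tjp1 in control (4 UMIs, 333 CPM) and for Cldn5 in fibrosis. Within the 5 classes the lead over the next class was within counting error for Tjp1 and Cdh1 in both libraries and for Cldn7 and Epcam in fibrosis.

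**Figure D1:**
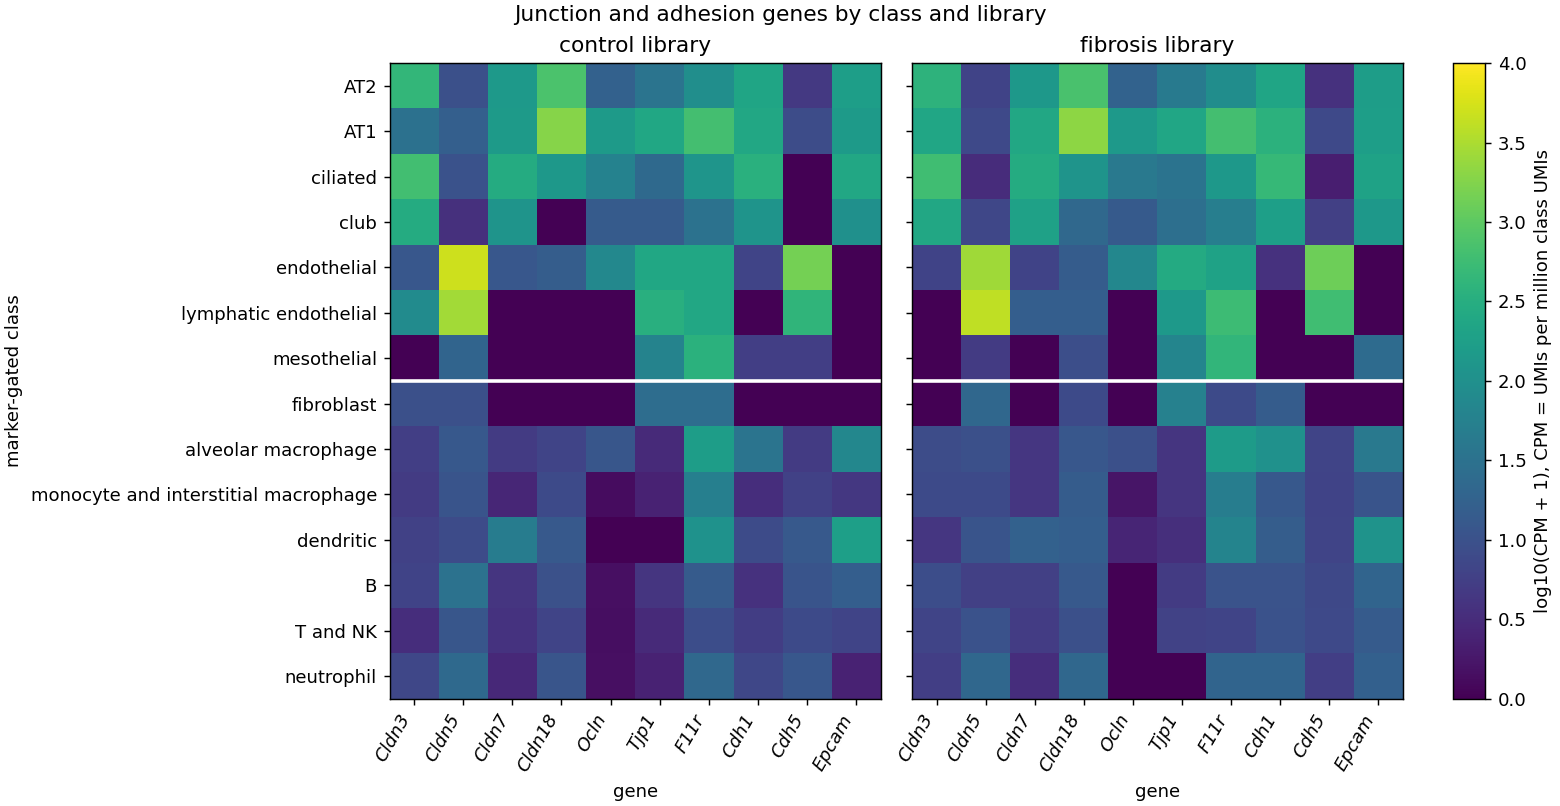
Levels of the 10 genes (columns) in each marker-gated class (rows) of the control library (left) and the fibrosis library (right), colour giving log10(CPM + 1) from 0 to 4. Rows above the white line are barrier classes, with the mesothelial row from the relative conflict rule; Cldn5 and Cdh5 are bright only in the endothelial rows and Cldn18 is brightest in AT1-gated cells.

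Among the claudins, Cldn18 (ENSMUSG00000032473, chr9:99689461-99717267 on GRCm38, minus strand), the claudin of alveolar epithelium, was at 1881 CPM in control and 2084 CPM in fibrosis in AT1-gated cells, from 246 and 311 UMIs. In AT2-gated cells it was at 727 and 713 CPM. AT1-gated cells therefore held 2.59-fold (2.26 to 2.94) more than AT2-gated cells in control and 2.92-fold (2.60 to 3.28) more in fibrosis. Cldn18 was found in 27 of 27 AT1-gated control cells and 33 of 36 fibrosis cells, and in 51.6% and 51.4% of AT2-gated cells after thinning every cell to 1000 UMIs. The same thinned share in B-gated cells was 0.833% and 2.12%. Unthinned, the AT2-gated shares were 96.4% and 93.8% and the B-gated ones 1.98% and 3.54%, at median depths of 5540 and 5303 UMIs against 1888 and 2587. In ciliated-gated cells Cldn18 was at 133 and 117 CPM, which is 25.6 and 14.6 UMIs per 1000 Sftpc UMIs against 3.63 and 4.11 in AT2-gated cells and 4.87 and 7.17 in B-gated cells. Club-gated cells had 0 Cldn18 UMIs in 33 control cells and 14 in 57 fibrosis cells.

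Cldn3 (chr5:134986214-134987472, plus strand) followed another order. Cldn3 and Cldn18 overlap Wbscr25 and Gm16004 on the opposite strand, and the strand setting of the counting is not given in the sources used here. Cldn3 stood at 623 and 588 CPM in ciliated-gated cells, 447.5 and 390.5 CPM in AT2-gated cells, and 287 and 251 CPM in club-gated cells. Each of these steps was larger than its counting interval in both libraries. The order is one of shares of the full class totals. The step from AT2-gated to club-gated cells depends on the part of each total that secretory transcripts take. The 27 and 36 AT1-gated cells held 4 UMIs (30.6 CPM) in 3 control cells and 34 UMIs (228 CPM) in 8 fibrosis cells, a log2 ratio of 2.90 that turned to -2.44 in AT1-like cells named from clusters. In control, AT1-gated cells thus held 0.0684 (0.0186 to 0.175) of the AT2-gated level, and in fibrosis 0.583 (0.403 to 0.817). The control level, with an interval of 8.33 to 78.3 CPM, compares with 5.32 CPM of Cldn3 in B-gated cells of that library.

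Cldn7, which joins Cldn3 in most tight epithelia, was at 288 and 285 CPM in ciliated-gated cells, 153 and 248 CPM in AT1-gated cells, 139 and 136 CPM in AT2-gated cells and 116 and 192 CPM in club-gated cells. Only the step from ciliated-gated to the next class in control (1.89-fold, 1.19 to 3.15) and the step from club-gated to AT2-gated cells in fibrosis (1.41-fold, 1.16 to 1.69) exceeded counting error among these 4 classes. Endothelial-gated cells held 4 and 2 UMIs of Cldn7. Of AT2-gated cells, 44.3% and 41.4% carried UMIs of Cldn3, Cldn7 and Cldn18 together, and after thinning 2.69% and 1.62% did, so most of this co-detection was lost at equal depth.

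**Figure D2:**
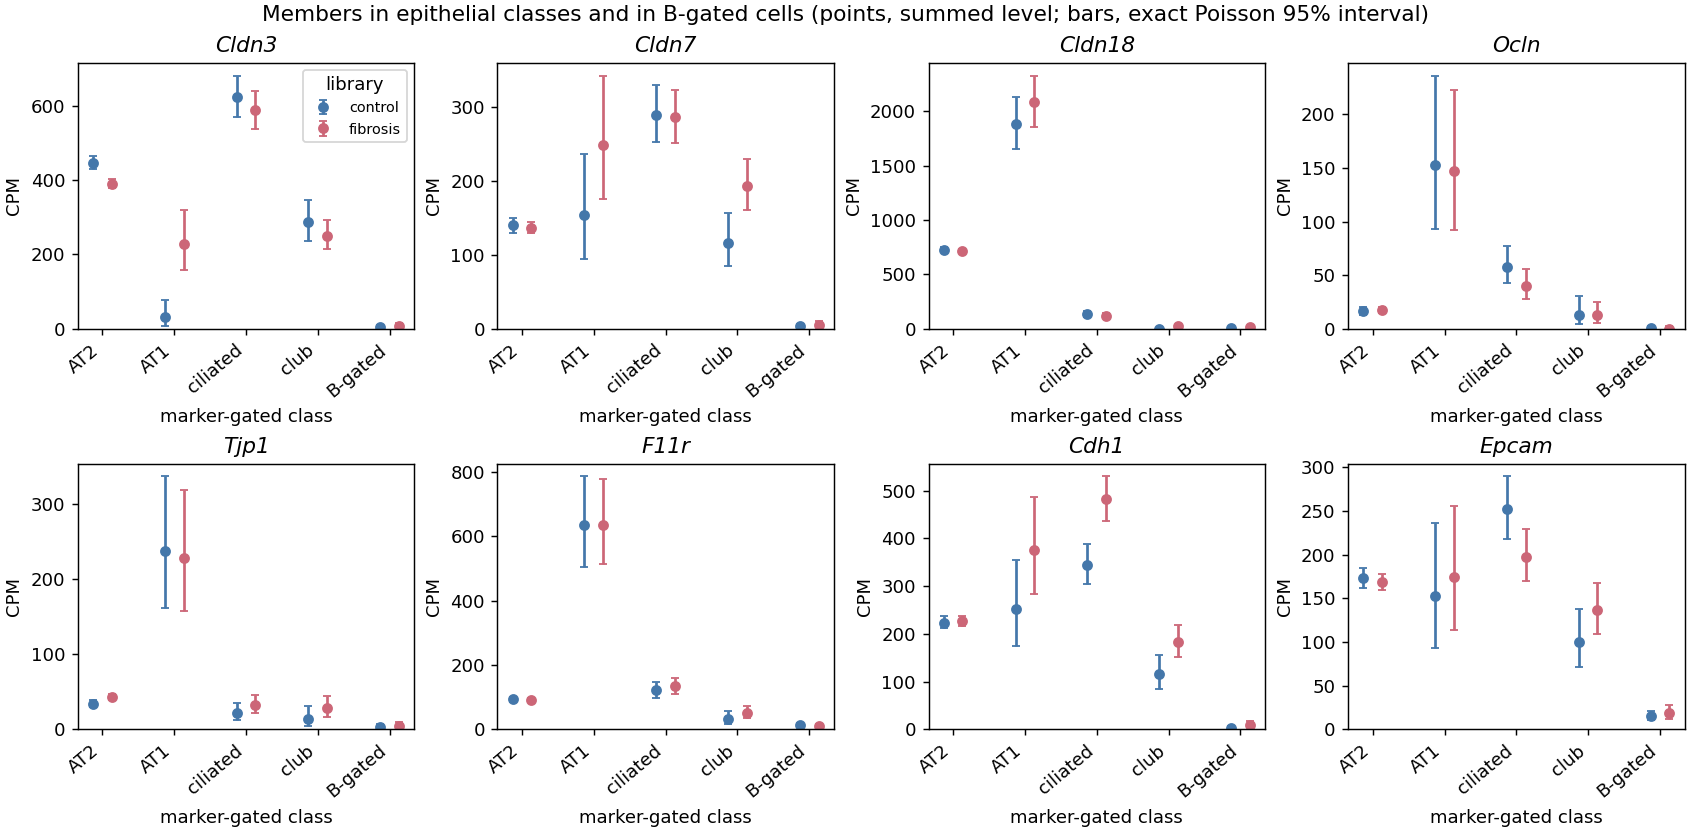
Level in CPM of the 8 genes found in epithelium, for the 4 epithelial gated classes and for B-gated cells, in the control library (blue) and the fibrosis library (red). Points are summed levels and bars exact Poisson 95% intervals; Cldn18, Ocln, Tjp1 and F11r are highest in AT1-gated cells, and Cldn3 in ciliated-gated cells.

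Ocln, Tjp1 and F11r shared a high level in AT1-gated cells. F11r was at 635 and 636 CPM there, 245 and 197 CPM in endothelial-gated cells, 121 and 133 CPM in ciliated-gated cells, 92.7 and 90.2 CPM in AT2-gated cells and 31.6 and 51.1 CPM in club-gated cells. Every step in that order exceeded its counting interval in both libraries. Ocln was at 153 and 147 CPM in AT1-gated cells, 73.9 and 71.3 CPM in endothelial-gated cells, 57.9 and 39.8 CPM in ciliated-gated cells and 16.4 and 17.1 CPM in AT2-gated cells. Its step from endothelial-gated to ciliated-gated cells was within counting error in control (1.28-fold, 0.756 to 2.11). Against AT2-gated cells, AT1-gated cells held 9.32-fold (5.43 to 15.3) more Ocln in control and 8.60-fold (5.23 to 13.5) more in fibrosis.

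Tjp1 was at 239 and 277 CPM in endothelial-gated cells and 237 and 228 CPM in AT1-gated cells, and these levels did not differ beyond counting error (ratios 1.01, 0.660 to 1.57, and 1.22, 0.817 to 1.85). AT2-gated cells, at 34.1 and 42.7 CPM, lay well below both. Ciliated-gated cells, at 21.9 and 31.8 CPM, and club-gated cells, at 13.2 and 27.9 CPM, came next, and each step from AT2-gated to ciliated-gated to club-gated cells was within counting error. On GRCm38 the Tjp1 locus overlaps 2 annotated genes on the same strand that the files do not list, Gm44794 and Gm44792, so reads from them could be counted as Tjp1.

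Of the epithelial adhesion proteins, Cdh1 was at 344 and 482 CPM in ciliated-gated cells, 252 and 375 CPM in AT1-gated cells, 224 and 226 CPM in AT2-gated cells and 116 and 183 CPM in club-gated cells. Ciliated-gated and AT1-gated cells did not differ beyond counting error in either library. Endothelial-gated cells held 2 and 1 UMIs of Cdh1, or 5.69 and 2.74 CPM. Epcam was at 252 and 198 CPM in ciliated-gated, 173 and 169 CPM in AT2-gated, 153 and 174 CPM in AT1-gated and 100.1 and 136 CPM in club-gated cells. No Epcam UMI was found in 147 control or 105 fibrosis endothelial-gated cells, where a limit of 3 counts, which is not an exact interval, allows a share of up to 2.04% and 2.86% of cells with a UMI.

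In endothelium the order of the cadherins was the opposite. Cdh5 was at 1462 and 1289 CPM in endothelial-gated cells, from 514 and 470 UMIs, and between 0 and 7.65 CPM in the 4 epithelial classes of both libraries, where B-gated cells had 9.76 and 6.34 CPM. Cldn5 (ENSMUSG00000041378, chr16:18776847-18778262, plus strand) was at 4901 and 2641 CPM in endothelial-gated cells, from 1723 and 963 UMIs. Its levels in AT2-gated cells, 8.58 and 5.44 CPM, were at or below those of B-gated cells in control, 31.5 CPM, and close to them in fibrosis, 4.75 CPM. Lymphatic endothelial-gated cells also carried it, with 34 UMIs (2827 CPM) in 6 control cells and 282 UMIs (4077 CPM) in 12 fibrosis cells, and Cdh5 was at 416 and 593 CPM in the same cells.

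Mesothelial-gated cells numbered only 4 and 6, and 29 and 27 cells whose best list was the mesothelial one were set aside as a marker conflict. A relative rule, chosen after these numbers were seen, set cells aside only where another lineage had more than 50% of the cell's own marker count and left 30 and 28 cells. In these, F11r was at 364 and 426 CPM, in 28 of 30 and 25 of 28 cells, and Tjp1 at 59.8 and 64.4 CPM from 13 and 16 UMIs. Cldn3, Cldn7 and Ocln had 0 UMIs in both libraries, Cdh1 had 1 and 0, Cldn18 0 and 2, and Epcam 0 and 6. F11r was the only one of the 10 genes with more than 20 UMIs per library in mesothelial-gated cells.

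Where the transcripts lay in the whole suspension differed from the order of levels, since AT2-gated cells were the most numerous barrier class. Of all Cldn18 UMIs in kept cells, 66.8% in control and 66.3% in fibrosis were in AT2-gated cells and 4.21% and 3.35% in AT1-gated cells. Of Cdh1 UMIs, 47.1% and 38.0% were in AT2-gated cells. F11r went against the description as a barrier gene: 28.6% and 33.0% of its UMIs were in barrier classes and 21.8% and 23.2% in alveolar macrophage-gated cells, where it stood at 166 and 156 CPM. Epcam was also found outside the barrier, at 179 and 113 CPM in dendritic-gated cells and 69.1 and 39.9 CPM in alveolar macrophage-gated cells. Cells with a marker conflict held 54.8% and 54.4% of Cldn5 UMIs and between 21.7% and 57.8% of the UMIs of any member, so the class levels rest on part of each gene's transcripts.

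**Figure D3:**
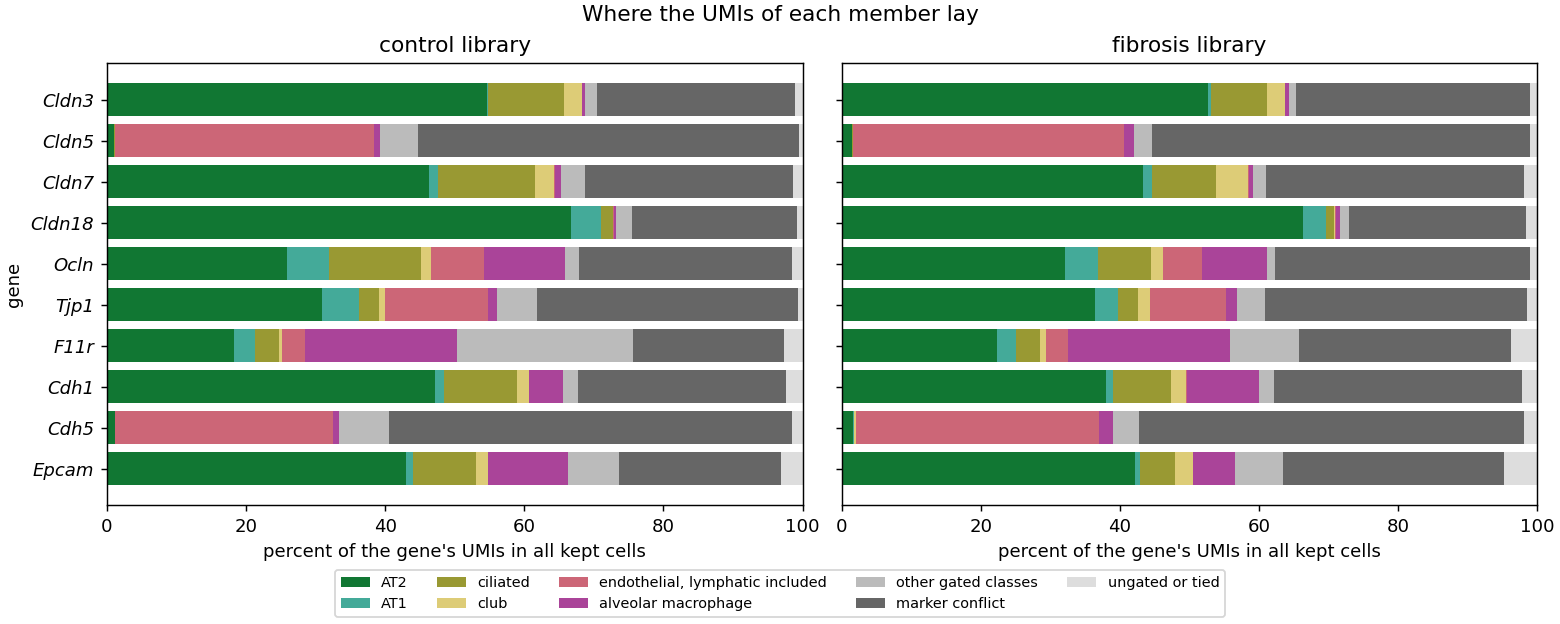
Percent of each gene's UMIs in all kept cells (x axis) that lay in each group of gated classes (colours), for the control library (left) and the fibrosis library (right). AT2-gated cells hold most Cldn18 UMIs, endothelial classes and marker conflict cells hold nearly all Cldn5 and Cdh5 UMIs, and F11r is spread over macrophages.

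Between the libraries, the AT2-gated set of junction genes was nearly level. A gene was counted as past the fold when its CPM differed at least 1.5-fold with at least 20 UMIs over both libraries. All 10 genes had that many UMIs in AT2-gated cells, and 0 were higher and 1 lower past the fold, beside 8.37% higher, 4.71% lower and 13.1% either way of all 11139 genes counted there. The gene past the fold was Cldn5, at the level of B-gated cells in fibrosis. The median log2 ratio of fibrosis over control was -0.03 for the 10 genes and 0.04 for all genes. Counting error was small for the abundant members: the ratio was 0.98 (0.941 to 1.02) for Cldn18, 0.979 (0.893 to 1.08) for Cldn7, 1.01 (0.942 to 1.09) for Cdh1 and 0.974 (0.897 to 1.06) for Epcam. Cldn3 was lower by a small step, with a ratio of 0.873 (0.828 to 0.920), and Tjp1 higher, with a log2 ratio of 0.32 (0.06 to 0.59).

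**Figure D4:**
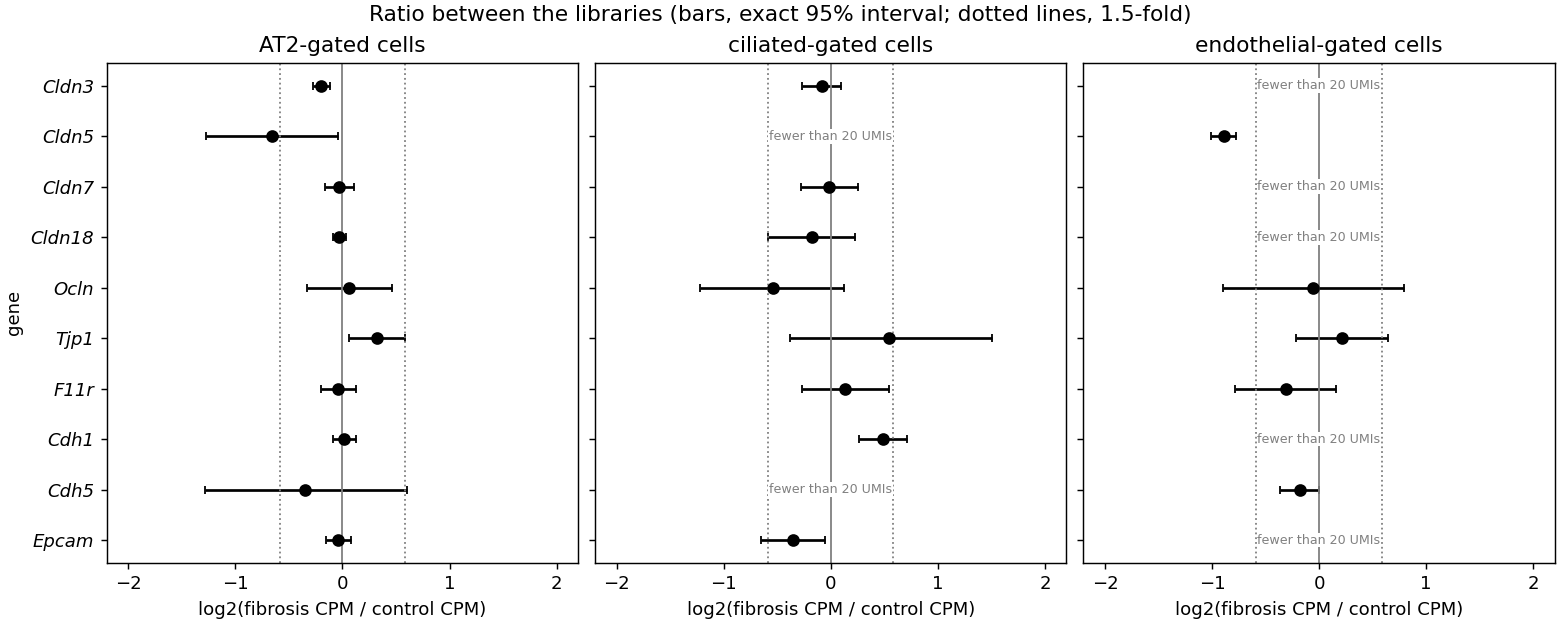
Log2 ratio of fibrosis CPM over control CPM (x axis) for the 10 genes in AT2-gated, ciliated-gated and endothelial-gated cells, with exact 95% intervals as bars and dotted lines at 1.5-fold. Genes with fewer than 20 UMIs over both libraries are marked; Cldn5 in endothelial-gated cells lies at -0.89, the farthest from 0 among the genes with at least 20 UMIs.

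AT2-gated cells of the 2 libraries differed in makeup, so the comparison was repeated within parts. AT2-gated cells above 12.2 UMIs of Lcn2 and Il33 per 10000, the median over both libraries, made up 29.6% of control and 62.4% of fibrosis cells. Cldn18 was at 755 and 780 CPM in the low part and 667 and 678 CPM in the high part, so the high part held 0.884 (0.824 to 0.947) of the low part's level in control and 0.869 (0.825 to 0.915) in fibrosis. F11r showed a similar step, with 0.797 (0.649 to 0.975) and 0.796 (0.688 to 0.922). Cldn7 did not differ beyond counting error between the parts in either library, with ratios of 1.05 (0.899 to 1.23) and 0.992 (0.878 to 1.12). Cldn3 was lower in fibrosis within both parts, with ratios of 0.903 (0.837 to 0.974) and 0.845 (0.778 to 0.918).

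Among the other genes of cell contacts in AT2-gated cells, those of epithelial and endothelial adhesion gave the highest count past the fold. Of 10 counted genes of epithelial and endothelial adhesion, 5 were higher and 0 lower in fibrosis, where 8.37% of all genes were higher and 4.71% lower. Among them were Itga6, an integrin chain that binds laminin, at 14.5 and 30.0 CPM, Mcam at 1.12 and 2.08 CPM (6 and 18 UMIs, a ratio of 1.86 with an interval of 0.708 to 5.73 that held 1), Icam1, the leukocyte adhesion receptor, at 117 and 191 CPM, and Itga3 at 15.7 and 23.7 CPM. Of 23 tight junction partners 2 were higher and 1 lower, a share near that of all genes. These were Cldn4 (0.56 and 1.97 CPM), Cldn10 (4.29 and 7.41 CPM) and Cldn23 (2.42 and 1.04 CPM), all at low levels, and the interval of the Cldn23 ratio (0.162 to 1.09) held 1. Of 13 adherens junction partners 0 were higher and 1 lower, Ptprb, a phosphatase that acts on Cdh5, at 22.2 and 3.59 CPM. Ptprb was also lower in ciliated-gated cells (14 and 2 UMIs) and club-gated cells (7 and 1 UMIs). Its fall was thus not particular to AT2-gated cells, though these 2 classes held few of its UMIs. Endothelial-gated cells did not share the fall. There Ptprb was higher in fibrosis but short of the fold, at 1414 and 1972 CPM, a ratio of 1.40 (1.24 to 1.57). The catenin Ctnnb1, which links Cdh1 to actin, was not past the fold, at 384 and 492 CPM. Of 4 gap junction genes, Gja1 (connexin 43) was higher, at 77.8 and 129 CPM, and none of 6 desmosome genes passed. Of 13 stress genes known to respond to tissue digestion, 3 were higher past the fold (Fosb, Hspa1a and Hspa1b), and their part in these ratios was not tested.

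In ciliated-gated cells, 8 of the 10 genes had enough UMIs and 0 were past the fold in either direction, beside 12.7% higher, 8.43% lower and 21.1% either way of 7756 genes. The log2 ratios farthest from 0 were those of Ocln (45 and 35 UMIs, -0.54) and Tjp1 (17 and 28 UMIs, 0.54), both with intervals that held 1. Cdh1 was at 344 and 482 CPM, with a ratio of 1.40 (1.20 to 1.64) beyond counting error, and was found in 75 of 87 and 80 of 83 cells. Epcam was at 252 and 198 CPM, with a ratio of 0.784 (0.635 to 0.966). Cldn3 and Cldn7, with ratios of 0.943 (0.832 to 1.07) and 0.989 (0.823 to 1.19), did not differ beyond counting error. The depth per cell differed, at a median of 5684 and 6460 UMIs.

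AT1-gated and club-gated cells were fewer than 50 in a library, so their values are set side by side only. In AT1-gated cells Cldn18, F11r, Tjp1 and Ocln had ratios between 0.961 and 1.11, Epcam 1.14, Cdh1 1.49 and Cldn7 1.62, all with intervals that held 1. The Cldn3 ratio was 7.45 (2.66 to 28.9), and 10.6 (2.65 to 92.0) without the cell with most Cldn3 UMIs in each library, 8 UMIs in the fibrosis library. Its direction turned in AT1-like cells named from clusters, as the Cldn3 levels showed. The club and AT2 transcripts Scgb1a1 and Sftpc in AT1-gated cells were at 4084 and 12468 CPM and at 11952 and 11169 CPM, and their part in the Cldn3 values was not tested. In club-gated cells Cldn7 was at 116 and 192 CPM, a ratio of 1.66 (1.17 to 2.39), and Cdh1 at 116 and 183 CPM, a ratio of 1.58 (1.11 to 2.28). F11r and Tjp1 had ratios of 1.62 (0.813 to 3.44) and 2.12 (0.757 to 7.29), whose intervals held 1. The share of all genes past the fold was not counted in this class. Epcam had a ratio of 1.36 (0.920 to 2.05) and Cldn3 one of 0.873 (0.681 to 1.12). Scgb1a1 took 555258 and 446730 CPM of the club-gated total, which left the other genes a larger part of it in fibrosis. With a total without mitochondrial, ribosomal and secretory genes the club-gated Cldn3 log2 ratio was -0.58 instead of -0.20. On that total every other ratio of the class moves down by the same step. This puts Cldn7, Cdh1 and F11r short of the 1.5-fold step and leaves Tjp1 past it. The club-gated Cldn7 log2 ratio was 0.14 as a mean over cells.

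Among the members counted in AT2-gated, ciliated-gated and endothelial-gated cells, the log2 ratio farthest from 0 was that of Cldn5 in endothelial-gated cells. Cldn5 was at 4901 CPM (4672 to 5138) in control and 2641 CPM (2477 to 2814) in fibrosis. This is a ratio of 0.539 (0.498 to 0.584), or -0.89 on the log2 scale. Of the 5 members with enough UMIs, 0 were higher and 1 lower past the fold, beside 12.3% higher, 16.6% lower and 28.8% either way of 5364 genes, so a gene past the fold was common in this class. The 5th to 95th percentile of the log2 ratios of all these genes ran from -1.01 to 0.89, a range that holds the Cldn5 value. The median log2 ratio was -0.18 for the 5 and -0.05 for all genes. In endothelial cells named from clusters, 371 and 266 in number and not freed of marker conflicts, all 10 members had enough UMIs and the median turned to 0.38. There Cldn3, Cldn7, Cldn18 and Epcam were higher past the fold, at between 13.7 and 133 CPM, and Cldn5 was lower, with a ratio of 0.632 (0.601 to 0.664). Per cell, the median Cldn5 level was 53.8 UMIs per 10000 in control and 27.4 in fibrosis, and the middle parts of the distributions overlapped (quartiles 26.9 to 73.5 and 11.2 to 42.7). After thinning to 1000 UMIs Cldn5 was found in 93.9% and 81.0% of cells, against 3.12% and 0.236% of B-gated cells. Cdh5 was found in 77.6% and 75.2%.

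The other endothelial members lay closer together. Cdh5 had a ratio of 0.882 (0.777 to 1.00), with log2 ratios between -0.32 (relative conflict rule) and 0.32 (floor of 2000 UMIs) over its alternatives. The ratio was 1.16 (0.860 to 1.57) for Tjp1, 0.807 (0.582 to 1.12) for F11r and 0.964 (0.538 to 1.73) for Ocln, and each interval held 1. Counted against Cdh5 in the same cells, which removes the class total, there were 3.35 (3.04 to 3.71) Cldn5 UMIs per Cdh5 UMI in control and 2.05 (1.83 to 2.29) in fibrosis. Over all kept cells, with no gate at all, the same quotient was 2.85 (2.69 to 3.02) and 2.19 (2.06 to 2.33).

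Endothelial-gated cells were also split by Vwf, the clotting factor carrier of larger vessels. After thinning to 1000 UMIs, a Vwf UMI was found in 30.6% (23.3 to 38.7) of control and 51.4% (41.5 to 61.3) of fibrosis cells, against 0.417% and 0.472% of B-gated cells, and no cell of these classes was too shallow to be thinned. Unthinned, the endothelial-gated shares were 36.1% and 57.1% and the B-gated ones 0.729% and 2.36%, at median depths of 1866 and 2850 UMIs against 1888 and 2587. Cells with Vwf held less of both genes, with Cldn5 at 0.424 (0.381 to 0.472) of the level of cells without Vwf in control and 0.377 (0.331 to 0.429) in fibrosis. Within cells without Vwf, Cldn5 was at 6726 and 4556 CPM, a ratio of 0.677 (0.611 to 0.750). Within cells with Vwf it was at 2854 and 1717 CPM, a ratio of 0.602 (0.526 to 0.687). The lower Cldn5 level of the fibrosis library was thus present in both parts, with a step smaller than that of the whole class. In cells without Vwf it was short of the 1.5-fold step, and with the relative conflict rule it was short of it in both parts (log2 ratios of -0.55 without and -0.53 with Vwf). Split after thinning, an alternative added after seeing the data, Cldn5 had ratios of 0.620 (0.528 to 0.724) without and 0.544 (0.418 to 0.707) with Vwf. Cdh5 did not differ beyond counting error in either part, with ratios of 1.02 (0.862 to 1.20) and 1.08 (0.874 to 1.34).

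**Figure D5:**
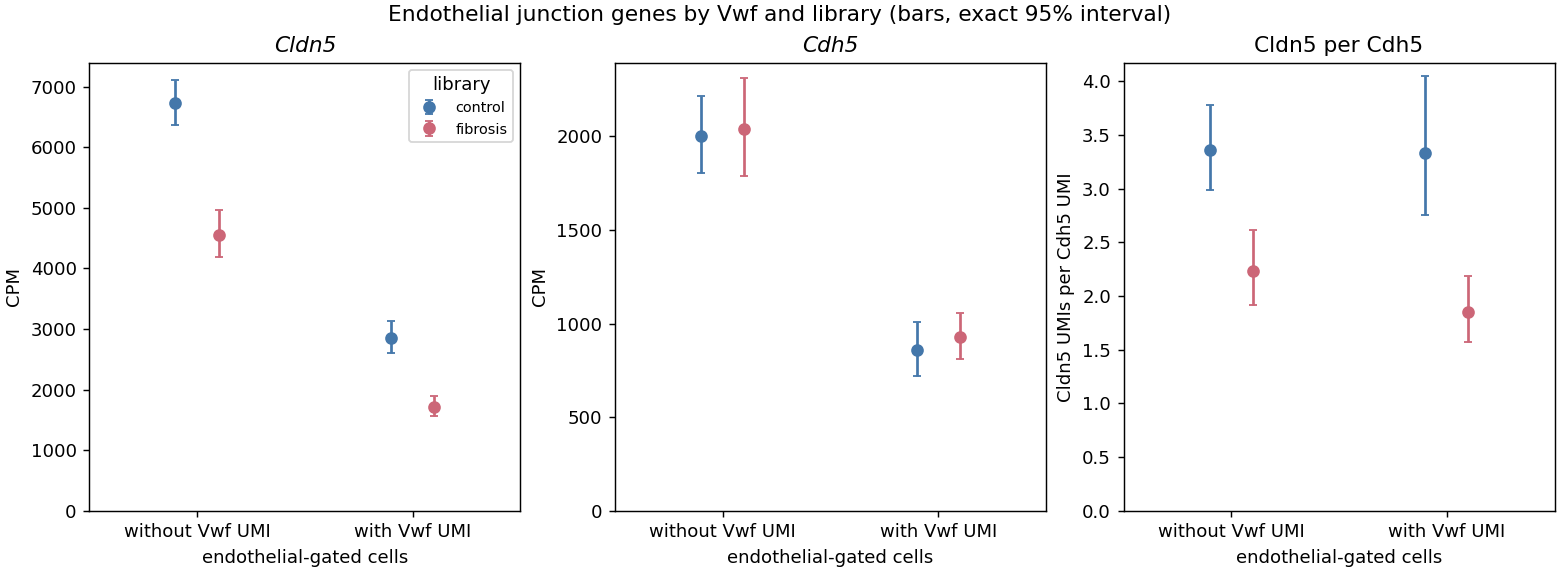
Levels of Cldn5 and Cdh5 in CPM, and Cldn5 UMIs per Cdh5 UMI, in endothelial-gated cells without and with a Vwf UMI, for the control (blue) and fibrosis (red) libraries, with exact 95% intervals as bars. Cldn5 is lower in fibrosis in both parts (6726 and 4556 CPM without Vwf, 2854 and 1717 CPM with it), while the Cdh5 intervals overlap.

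Several technical values moved with the endothelial difference. The median depth of endothelial-gated cells was 1866 UMIs in control and 2850 in fibrosis, and with a floor of 2000 UMIs in both libraries the Cldn5 log2 ratio was -0.67. Free Sftpc and Scgb1a1 in these cells were lower in fibrosis, at 2344 and 1522 CPM and at 7639 and 3456 CPM, and their part in the result was not tested. Cldn5 in B-gated cells was also lower, at 31.5 and 4.75 CPM, and subtracting it left a log2 ratio of -0.88. The digestion stress genes moved in both directions, 2 higher and 3 lower of 8 counted: Jun was at 1465 and 938 CPM, Ier2 at 324 and 206 CPM, Egr1 at 42.7 and 27.4 CPM, Fos at 45.5 and 101 CPM and Zfp36 at 73.9 and 118 CPM. Their part in the result was not tested. Over the 20 alternatives tried, the Cldn5 log2 ratio lay between -0.90 and -0.21 and kept its sign in all of them, the smallest size being that of the share of thinned cells. Among these, a minimum of 10 UMIs and no minimum of UMIs cannot move the ratio of a single gene. Removal of the highest doublet scores also left it at -0.89. It was short of the 1.5-fold step in that share and in the 3 Vwf parts named above.

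Of the other contact genes of endothelial-gated cells, Icam2, an adhesion receptor for leukocytes, was at 1641 and 902 CPM, Itga3 at 151 and 85.0 CPM and the tetraspanin Cd151 at 384 and 247 CPM, all 3 lower past the fold. Itgb4 was higher, at 28.4 and 74.1 CPM. These were 1 higher and 3 lower of 11 counted adhesion genes, near the 12.3% higher and 16.6% lower of all genes in this class. Of 6 tight junction partners, 0 were higher and 2 lower, among them Mpp5 (54.0 and 21.9 CPM). None of 10 adherens junction partners and none of 3 gap junction genes passed. Pecam1, a homophilic adhesion protein of endothelium, was at 1297 and 1215 CPM, and the endothelial junction protein Esam was at 902 and 647 CPM, short of the fold.

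Genes with the most similar pattern were sought by Pearson correlation of log2(CPM + 1) over 24 combinations of class and library, among 12138 genes. These points share libraries, depth and free RNA, and the values are descriptions. Cldn5 was nearest to Pcdh17 (0.957), Ldb2 (0.951) and Tmem252 (0.950), and Cdh5 to Sema3g (0.945), Cytl1 (0.930) and Gpihbp1 (0.920), the last a carrier of lipoprotein lipase in capillaries. Cldn3 was nearest to Wfdc2 (0.960), Cbr2 (0.956) and Esrp1 (0.954), and Cldn7 to Slc25a10 (0.951), Smim22 (0.946) and Ildr1 (0.925). Esrp1 is an epithelial splicing regulator and Ildr1 a protein of tricellular junctions. Among the 3 genes nearest to Cldn18 were Gdnf (0.910) and Lpin2 (0.899), and Ocln was nearest to Itga3 (0.935), Etl4 (0.916) and Cadps2 (0.913). Itga3 is an integrin chain that binds laminin. Tjp1 was nearest to Efna1 (0.970), Epn2 (0.960) and Pvrl3 (0.959), and F11r to Mgst3 (0.859), Stx3 (0.854) and Ids (0.850). Cdh1 was nearest to Chka (0.937), Liph (0.917) and Irx3 (0.910), and Epcam to Spint1 (0.931), Lsr (0.898) and Tmem8 (0.880), of which Spint1 inhibits membrane proteases and Lsr lies in tricellular junctions. Within the 10, the closest pairs were Cldn5 with Cdh5 (0.894) and Cldn3 with Cldn7 (0.890).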

How the data were processed

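Lungs were digested with dispase and DNase I, and cells were captured with 10x Genomics 3′ V2 chemistry, per the labels' protocols. The deposited values are raw counts of UMIs per gene and cell, without normalization. The authors used Cell Ranger 1.3 with genome mm10, per the submitters' processing notes, and other settings are not given in the sources used here. The libraries held 8280 and 7173 cells with 36632591 and 38090308 UMIs.

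Cells with under 200 genes or over 10% mitochondrial UMIs were left out. Classes were gated cell by cell from 15 lists of 10 markers. Doublets were treated through the marker conflict rule. This rule acts between lineages only, so it did not set aside mixtures of AT2, AT1, ciliated and club cells. The scrublet threshold marked only 13 of 8025 control cells against 168 of 6945 fibrosis cells, so removal of the 6% highest scores in each library was an alternative. UMIs were summed per class and library and scaled to CPM, with exact Poisson intervals for levels, exact conditional intervals for ratios and Clopper-Pearson intervals for shares (Python 3.11.15, SciPy 1.17.1, scanpy 1.11.5). Medians of log2 ratios had 0.5 UMI added to each sum. Ratios were checked on simulated counts. The members and lists were chosen with earlier results of these data known. All members were described; of each list, up to 4 genes per direction with the largest ratio past 1.5-fold were named, and the 3 genes most correlated with each member; some genes that this rule selects are not reported here. Itga3 in AT2-gated cells, Esam, Pecam1 and Ctnnb1 were named after their values were seen. The lists of contact genes held 75 genes. Gene positions are those of GRCm38, and promoters come from RefSeq.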

Additional observations from a re-analysis of the deposited data

Results flagged for a closer look

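Cdh1 transcripts were found in a class outside the barrier comparisons. Alveolar macrophage-gated cells had Cdh1 at 34.1 CPM in control (122 UMIs in 694 cells) and 104 CPM in fibrosis (535 UMIs in 923 cells), a ratio of 3.04 (2.49 to 3.73). The class was spread over clusters differently in the libraries: cluster 1 held 82.7% of the control and 53.5% of the fibrosis cells, and cluster 22 held 5.62% and 36.1%. Within cluster 1 Cdh1 was at 32.4 and 71.6 CPM, a ratio of 2.21 (1.70 to 2.88), and within cluster 22 at 52.1 and 152 CPM, a ratio of 2.91 (1.65 to 5.70). In monocyte and interstitial macrophage-gated cells Cdh1 was at 2.28 and 11.6 CPM (24 and 53 UMIs), a ratio of 5.10 (3.09 to 8.63), with levels close to those of B-gated cells. B-gated cells had 2.66 and 9.51 CPM. After thinning to 1000 UMIs Cdh1 was found in 3.03% and 9.53% of alveolar macrophage-gated cells and in 0.104% and 1.18% of B-gated cells. Cdh1 UMIs per 1000 Sftpc UMIs were 29.0 and 70.2 in alveolar macrophage-gated cells and 1.12 and 1.31 in AT2-gated cells. Epcam in the same macrophages was at 69.1 and 39.9 CPM, and within cluster 1 at 73.0 and 63.6 CPM, a ratio of 0.871 (0.701 to 1.08).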

How the results depend on the processing

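Of 123 recomputed counts and medians of the members, 102 kept their value within the stated limits and 21 moved; of 132 recomputed log2 ratios whose reported value was past the 1.5-fold step 2 changed direction, Cldn3 in AT1-gated cells with classes named from clusters (-2.44) and Cdh1 in club-gated cells as a share of thinned cells (-0.57). Of 453 recomputed for values short of that step, 69 changed sign, among them Cdh5 in endothelial-gated cells (0.32 with a floor of 2000 UMIs). Both tallies of log2 ratios include the settings with another minimum of UMIs, which cannot move the ratio of a single gene. In endothelial-gated cells the number of members higher was 4 with clusters and 1 where 2 or more markers of another lineage set a cell aside, and the number lower was 4 with no minimum of UMIs. The median log2 ratio there was 0.38 with clusters, 0.048 with 2 or more such markers, 0.046 with a floor of 2000 UMIs, -0.32 with the relative conflict rule (added after seeing the data) and -0.31 with no minimum of UMIs. In ciliated-gated cells the number higher was 2 without the highest doublet scores, 2 with at most 5% mitochondrial UMIs and 1 with no minimum; the number lower was 1 with a total without mitochondrial, ribosomal and secretory genes, 1 with the relative rule, 1 with no minimum and 2 as shares of thinned cells, whose median was -0.23. In AT2-gated cells the number higher was 1 with at most 5% mitochondrial UMIs, and the number lower was 2 with the relative rule, 0 as a mean over cells, 0 with the B-gated level subtracted and 2 as shares of thinned cells. The cause of these moves was not tested. Clusters gave no ciliated class, since 1 cluster raised 10 ciliated and 10 club markers. No paired analysis was possible because each group has 1 sample. The depth of AT1-gated, club-gated and mesothelial-gated cells limits their ratios to the intervals given.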
